A study of Mus musculus with 76 samples.

Results

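Gene expression in the right ventricle (RV) of gamma-irradiated mice was compared with that of mice exposed to a mixed radiation field. The comparison took 18 of the 76 RNA-seq libraries of the series, chosen by title and label. Libraries F17 to F19 and F36 to F40 were labelled gamma at 100 cGy (8 libraries), and libraries F1 to F5 and F21 to F25 were labelled Mix at 50 cGy (10 libraries). All 18 came from C57Bl/6J mice labelled female and given the normal diet (ND), with no transgene or drug named. F16, labelled gamma at 0 cGy, was left out. The labels give neither the age of these mice, nor the composition of the mixed field, nor the dose rate, and the kind of radiation changes together with the dose, so that field and dose cannot be told apart here. The rest of the series holds sham-treated mice of both sexes on a normal or Western diet and other irradiated mice. The 9 sham ND female libraries (F6 to F9 and F26 to F30, 0 cGy) were used only as background. Nothing in the labels states that libraries of a group came from separate animals, so the p-values measure the spread between libraries.

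The RV pumps blood into the lung circulation, and most of its mRNA comes from cardiomyocytes, beside endothelial cells, fibroblasts, mural cells and macrophages. Ionizing radiation breaks DNA directly and through reactive oxygen species. In the acute phase it activates p53, which induces Cdkn1a and other genes that halt the cell cycle or start apoptosis, and the transcription factor Nrf2, which induces genes that remove peroxides and rebuild glutathione. Long after exposure, interferon, fibrosis and metabolic genes are commonly examined in the heart.

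The 18 libraries held between 13451600 and 22009400 counted reads. RNA integrity (RIN, a scale on which higher values mean less degraded RNA) was 7.14 ± 0.977 in the gamma group (SD, n = 8) and 7.24 ± 0.938 in the mixed field group (SD, n = 10), and the difference was within the spread of the libraries (exact permutation test, two-sided, p = 0.823). The counted totals did not differ either beyond their spread (exact permutation test, p = 0.457). Ventricular cardiomyocyte markers were high throughout: their summed level ran from 53842 to 68510 CPM (counts per 1e6 counted reads) in the gamma group and from 52388 to 70462 in the mixed field group, with Hand1 the only one of 12 markers at 0. The pairs F17/F18, F36/F37, F2/F5, F21/F23 and F22/F24 were nearly identical. Their counts differed by a mean chi-square per gene of 1.68 to 2.78, where 1 is sampling noise and the other pairs of libraries lay at 16.04 or more. The main results are therefore also given with each pair summed into 1 library, which leaves 6 gamma against 7 mixed field libraries. Where no such value is given, both libraries of a pair were counted. The library labelled F39 went against its label in Xist, the RNA that silences one X chromosome in females. Xist stood at 1.19 CPM there against 60.1 to 134 in the other gamma libraries and 131 to 177 in the mixed field libraries. The Y-linked genes Ddx3y, Eif2s3y and Uty were at 0 in all 18. Kdm5d, the other Y-linked gene checked, was not at 0 in every library. The lowest gamma sum of Xist and these Y-linked genes was 1.19 CPM, the level of Xist alone in F39.

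Differential expression analysis with 18 libraries identified 17 differentially expressed genes (DEGs) among 11507 genes tested, or 0.148% (edgeR quasi-likelihood test, Benjamini-Hochberg adjusted p under 0.05). Of these, 3 were higher after gamma (0.0261% of genes tested) and 14 were lower (0.122%). With each near-identical pair summed, no gene passed (0 DEGs, edgeR), although 1100 genes (9.56%, 4.04% in the higher direction) had an unadjusted p under 0.05, against 1906 with 18 libraries (16.6% of genes tested, 7.93% higher and 8.64% lower). DESeq2 called 313 genes (2.72%) with 18 libraries and 18 (0.156%) with pairs summed, and both DESeq2 sets included all 17. The lowest adjusted p that any of the 17 reached in edgeR with pairs summed was 0.193, at unchanged direction and nearly the same size. Below, "rose" and "fell" are used of genes past the threshold with 18 libraries, a call that summing the pairs ends for each of them in edgeR and for none of them in DESeq2 (highest adjusted p 0.0433).

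The 3 genes that rose were Kcnk1, Srxn1 and Egln2. Kcnk1 encodes a potassium leak channel of the cell membrane. Its level was 5.03, 8.84 and 12.6 CPM (lowest, median and highest) in the gamma group and 2.96, 3.90 and 5.73 in the mixed field group. Only the lowest gamma libraries, F40, F19 and F39, came near or below the upper mixed field values. The log2 fold change (log2FC, gamma over mixed field) was 0.99 ± 0.18 (SE; edgeR adjusted p = 0.0244), and it was 0.97 with pairs summed. Across the settings other than leaving out 1 library, described at the end, it went as low as 0.38. Kcnk1 passed in 26 of 42 settings. Srxn1 encodes sulfiredoxin, which restores over-oxidized peroxiredoxins, and is a textbook target of Nrf2. It stood at 30.7, 38.6 and 44.5 CPM after gamma and at 23.6, 27.4 and 30.7 CPM after mixed field, so that the groups overlapped only where F19 met F5. Its log2FC was 0.48 ± 0.08 (SE; edgeR adjusted p = 0.0118). Egln2 encodes a prolyl hydroxylase that marks hypoxia-inducible factors for degradation. Its gamma libraries (59.99, 65.5 and 71.3 CPM) all lay above its mixed field libraries (45.5, 51.2 and 55.8 CPM), with a log2FC of 0.36 ± 0.06 (SE; edgeR adjusted p = 0.0118).

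The promoters of the genes that rose are shown because Srxn1 is a known Nrf2 target and the antioxidant genes are described further on. They are taken from RefSeq (GRCm38.p6, 250 bases before to 50 after the annotated start, 5′ to 3′ on the gene's strand). Capitals mark matches to TGACNNNGC or TGAGNNNGC, the core of the antioxidant response element, on either strand.
Srxn1, chr2:152105274-152105573, plus strand: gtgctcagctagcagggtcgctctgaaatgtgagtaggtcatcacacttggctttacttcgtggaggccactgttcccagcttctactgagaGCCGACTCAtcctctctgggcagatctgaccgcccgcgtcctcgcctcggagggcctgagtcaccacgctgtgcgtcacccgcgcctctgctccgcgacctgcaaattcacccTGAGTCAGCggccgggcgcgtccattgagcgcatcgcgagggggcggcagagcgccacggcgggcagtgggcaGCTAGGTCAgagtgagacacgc
Kcnk1, chr8:125994852-125995151, plus strand: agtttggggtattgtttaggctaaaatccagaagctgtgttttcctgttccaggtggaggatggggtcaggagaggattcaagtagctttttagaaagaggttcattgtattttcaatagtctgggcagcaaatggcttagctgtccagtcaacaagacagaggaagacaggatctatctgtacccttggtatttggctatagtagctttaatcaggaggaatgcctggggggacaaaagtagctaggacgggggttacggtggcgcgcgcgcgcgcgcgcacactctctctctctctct
Egln2, chr7:27166753-27167052, minus strand: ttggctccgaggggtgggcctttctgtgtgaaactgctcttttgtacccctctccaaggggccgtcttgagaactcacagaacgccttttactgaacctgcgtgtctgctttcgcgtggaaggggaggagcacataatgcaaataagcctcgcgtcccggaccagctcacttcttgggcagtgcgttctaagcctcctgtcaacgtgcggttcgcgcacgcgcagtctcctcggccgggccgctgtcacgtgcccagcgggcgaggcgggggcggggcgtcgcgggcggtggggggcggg
The Srxn1 window held 3 matches, beginning at bases 93, 206 and 279, and the Kcnk1 and Egln2 windows held none. Of all 32851 RefSeq mouse promoters of this length, 27.8% held at least 1 match (12.4% TGACNNNGC and 17.6% TGAGNNNGC). A match is a description of these letters and not of a bound site.

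Of the 14 genes that fell, 9 were protein-coding and 5 were long non-coding RNAs. Mtx3, which encodes a metaxin of the mitochondrial outer membrane import machinery, had the smallest p. It stood at 7.65, 10.2 and 11.9 CPM after gamma and at 13.3, 15.8 and 20.01 CPM after mixed field, without overlap (log2FC −0.66 ± 0.10 SE, edgeR adjusted p = 0.00799). Hmcn1, which encodes the large extracellular matrix protein hemicentin, stood at 7.20, 11.3 and 15.6 CPM against 16.5, 19.7 and 29.8 CPM, again without overlap (log2FC −0.88 ± 0.15 SE, edgeR adjusted p = 0.0118). Slf2, which brings a chromosome maintenance complex to damaged DNA, fell by 0.43 on the log2 scale. Shprh, a ubiquitin ligase of DNA damage tolerance, fell by 0.48. Jarid2, a partner of the Polycomb repressive complex that is needed in heart development, fell by 0.53. It had 10.8, 16.3 and 19.7 CPM against 19.1, 23.6 and 29.3, and overlapped only where F18 passed F4.

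The other protein-coding genes that fell were Mtss1, a membrane-bending regulator of actin (log2FC −0.51), Pkd2l2, of the polycystin channel family (−0.47), Mphosph9, a centriole protein (−0.45), and Gtf2a1, the large subunit of the general transcription factor that assists TATA-binding protein (−0.32). Of these, Pkd2l2, Mphosph9 and Gtf2a1 did not overlap between the groups. Of the non-coding RNAs, Ftx is transcribed from the X-inactivation centre beside Xist and is known to promote Xist expression. It stood at 1.94, 2.57 and 3.74 CPM after gamma and at 3.64, 4.60 and 5.82 CPM after mixed field (log2FC −0.82 ± 0.13 SE, edgeR adjusted p = 0.00799), and the value was −0.82 without F39 too (edgeR adjusted p = 0.0148). Mir22hg, the host transcript of a microRNA abundant in heart muscle, fell by 0.40. The remaining 3 have no known role stated here and were named after their values were seen: C920021L13Rik (−0.85), Gm57283 (−0.86) and Gm10435, which had the largest change of the 17 (−1.18 ± 0.21 SE, edgeR adjusted p = 0.0206).

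**Figure D1:**
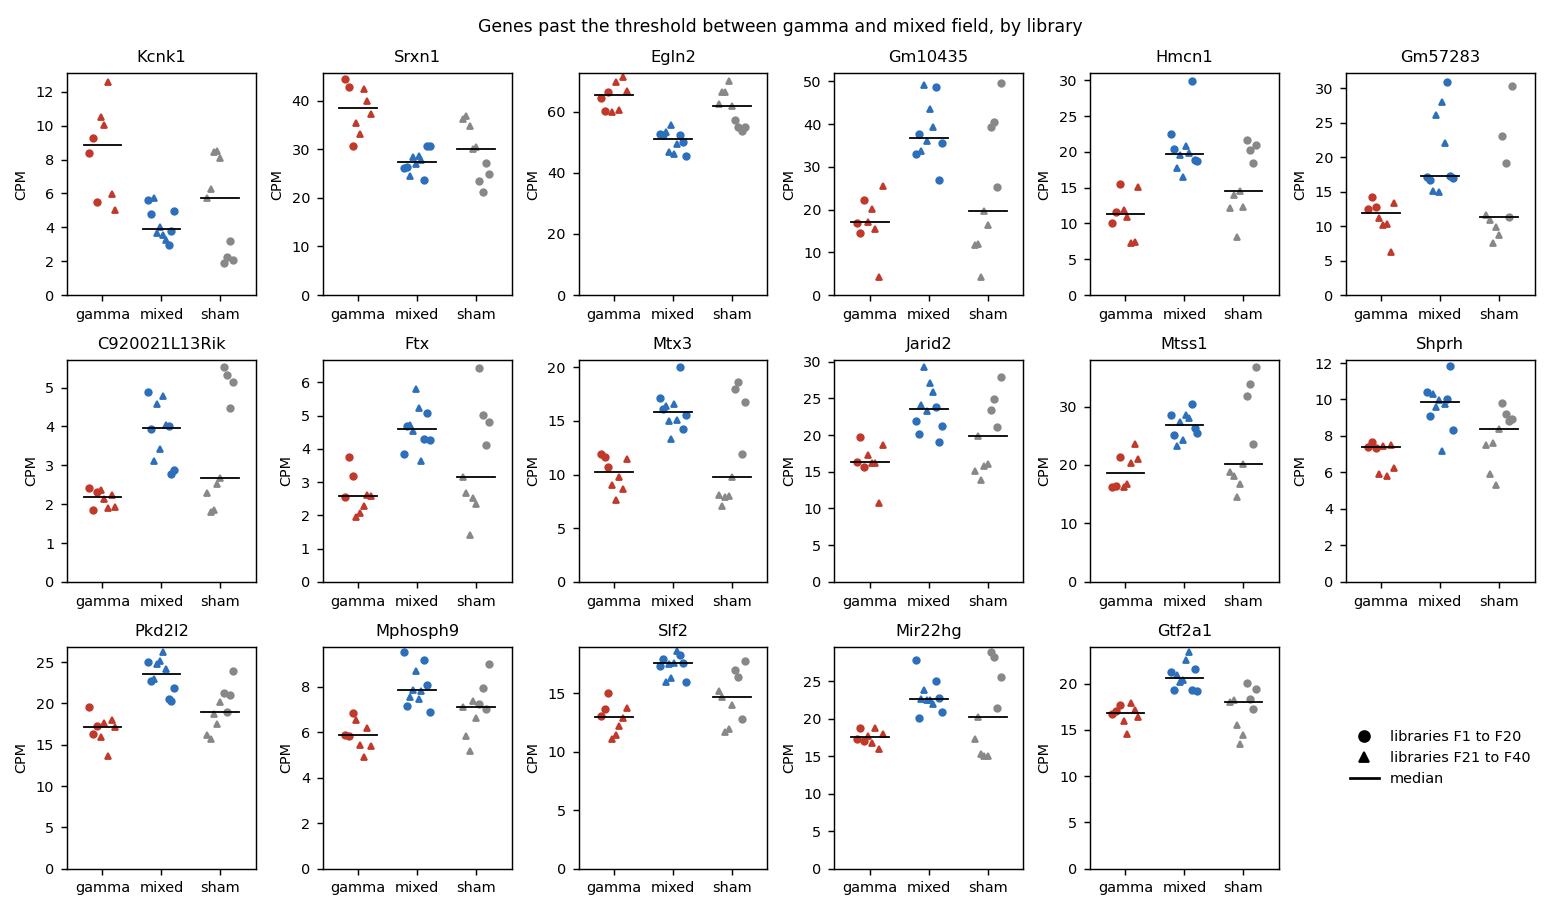
Level of each of the 17 genes past the threshold in each library, in CPM, for gamma (red), mixed field (blue) and sham (grey) libraries. Circles are F1 to F20, triangles F21 to F40, and each short line is a group median. In 11 of the 17 genes no gamma library reached a mixed field library, and in the sham group the triangles sit toward the gamma values and the circles toward the mixed field values.

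In total, 11 of the 17 did not overlap between the groups. Over all genes tested, every gamma library lay above every mixed field library in 3 genes (0.0261%) and below in 14 (0.122%). The non-overlapping genes that missed the threshold, named after their values were seen, were Scai, Sema6d, Ogt, Ap2a2, F11r and Ppp2r2d. Ogt, which attaches the sugar GlcNAc to nuclear and cytoplasmic proteins, had 58.9, 78.8 and 90.2 CPM after gamma against 91.9, 100.3 and 116 CPM after mixed field (log2FC −0.38, edgeR adjusted p = 0.0693).

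Each deposited count covers the 500 bases at the 3′ end of a gene, and whether strand was used in counting is not given in the sources used here. For 12 of the 17 genes another annotated gene of GENCODE vM39 overlaps that end, against 37.5% of the genes tested that have a position. Jpx, for example, overlaps the end of Ftx from the opposite strand. Where strand was not used, reads of such partners cannot be told apart. None of the partners that were themselves tested passed, and the log2FC was, among others, −0.26 for Fam13b, 0.02 for Tlcd2, 0.19 for Dtnbp1 and 0.24 for Ndufb9. All coordinates that follow are GRCm39 (mm39): Srxn1 lies on chromosome 2 from 151947436 to 151957687, Kcnk1 on chromosome 8 from 126721842 to 126757440, Egln2 on chromosome 7 from 26853588 to 26866408, Mtx3 on chromosome 13 from 92981268 to 92994738, and Ftx on chromosome X from 102592988 to 102667512.

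The genes with the next smallest p in the higher direction missed the threshold with 18 libraries. Among them were Ppp2cb, a catalytic subunit of protein phosphatase (log2FC 0.32), Popdc3, a cyclic AMP-binding membrane protein of muscle (0.44), Ogdhl, a relative of a citric acid cycle enzyme (0.63), Dnpep, a peptidase (0.42), Ninj1, which ruptures the membrane of dying cells (0.62), and Tmco4 (0.39), with edgeR adjusted p between 0.0611 and 0.0663. Ogdhl had 114, 202 and 221 CPM after gamma against 88.6, 124 and 134 CPM after mixed field.

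The libraries fall into 2 ranges of title numbers, F1 to F20 and F21 to F40, which in the sham females of the study's sample list are the 2 collection ages. Whether the same holds for the irradiated mice is not stated. Within F1 to F20, 3 gamma were compared with 5 mixed field libraries, and no gene passed (0 DEGs, edgeR; 999 genes, 8.68%, at an unadjusted p under 0.05; DESeq2 called 91). Within F21 to F40, 5 were compared with 5, and 293 genes passed (2.55%), of which 52 were higher after gamma (0.452%) and 241 were lower (2.09%). With pairs summed this count was 0 as well (edgeR; 1194 genes, 10.4%, at an unadjusted p under 0.05). The genes of smallest p in F21 to F40 were Gm49130 (log2FC −1.20), Acrbp (−1.13), Atn1 (−1.05), Tnrc6a, which takes part in microRNA silencing (−0.62), and Nfat5, the factor of the osmotic stress response (−0.60), with an edgeR adjusted p of 0.0165 for Gm49130 and 0.0232 for each of the others.

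All 17 genes had the same sign in both ranges, where 45.1% of all genes tested did. The 17 were chosen by a test that pooled the ranges, which favours genes of equal sign in both, so nothing is read from this count. Srxn1 had a log2FC of 0.50 in F1 to F20 and 0.45 in F21 to F40. Egln2 had 0.32 and 0.37, Kcnk1 had 0.80 and 1.11, and Mtx3 had −0.55 and −0.73. Hmcn1 (−0.85 and −0.86) and Mir22hg (−0.41 and −0.39) were nearly the same, whereas Ftx went from −0.51 to −1.08 and Jarid2 from −0.32 to −0.72. None of the 17 differed between the ranges by the interaction test (edgeR adjusted p from 0.219 for Ftx upward).

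**Figure D2:**
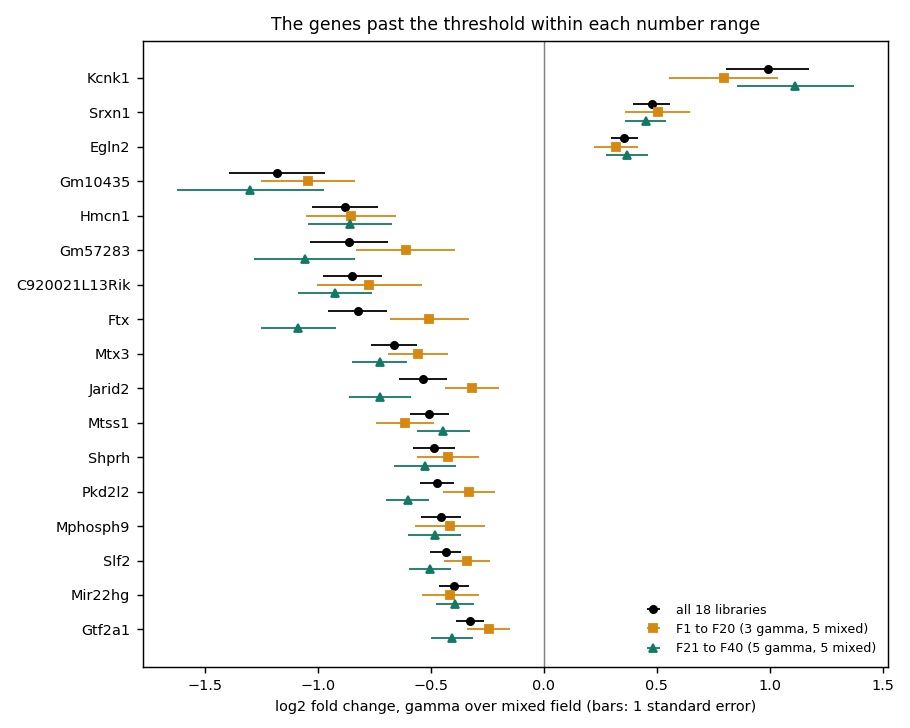
Log2 fold change of gamma over mixed field (points, with bars of 1 standard error) for each of the 17 genes with all 18 libraries, with F1 to F20 alone and with F21 to F40 alone. Each gene keeps its side of 0 in both ranges, from 0.80 and 1.11 for Kcnk1 to −1.04 and −1.30 for Gm10435.

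The interaction test asked which genes responded differently in the 2 ranges. It called 9 genes (0.0782%), of which 2 had the larger log2FC in F21 to F40 (0.0174%) and 7 the smaller (0.0608%), and it called 0 with pairs summed (edgeR; 660 genes, 5.74%, at an unadjusted p under 0.05). Tsc22d3, which encodes the glucocorticoid-induced leucine zipper, had the smallest p. In F1 to F20 the gamma libraries stood at 140, 133 and 139 CPM and the mixed field libraries at 60.9, 75.4, 80.7, 70.5 and 75.5 CPM, without overlap. In F21 to F40 the gamma libraries stood at 94.7, 92.1, 109.5, 78.0 and 109.5 CPM and the mixed field libraries at 110.4, 123, 114, 119 and 108 CPM. The log2FC was thus 0.90 in the first range and −0.26 in the second, a difference of −1.16 (edgeR adjusted p = 0.00792). Arrdc2, an arrestin-domain gene, had the largest difference, from 1.61 to −0.89. Its F1 to F20 levels were 36.6, 39.4 and 22.5 CPM after gamma and 7.78, 9.48, 17.7, 9.12 and 8.83 CPM after mixed field. Without F17 and F18, the interaction test left 0 genes past the threshold, and a single gamma library was then left in F1 to F20.

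F17 and F18, themselves a near-identical pair, stood apart in several genes, among them some that glucocorticoid hormones induce. Fkbp5, which tempers the glucocorticoid receptor and was named after its values were seen, had 62.9 and 64.7 CPM there, against 14.8 to 24.1 CPM in the other gamma libraries and 6.63 to 25.1 CPM in the mixed field libraries. Pdk4, the kinase that shuts off pyruvate oxidation in fasting, had 1711 and 1759 CPM in this pair and 114 to 384 CPM in the other gamma libraries. Cdkn1a had 157 and 151 CPM in the pair and 15.9 to 43.6 CPM elsewhere in the gamma group. Of 17 glucocorticoid-induced genes measured, 16 lay above 0, beside 54.8% of all genes tested. With 18 libraries 7 of the 17 had an unadjusted p under 0.05, all higher, beside 7.93% of all genes tested. None of the 17 passed the adjusted threshold. Their median log2FC was 0.45, against 0.02 for all genes tested, and it was 0.05 without F17 and F18. By range it was 0.96 in F1 to F20 and 0.13 in F21 to F40. Leaving out F17 and F18 also raised the number of DEGs to 1014 (8.81%), of which 456 were higher.

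Genes of the antioxidant response lay higher after gamma, with a single gene past the threshold. Of 27 measured, 27 were above 0, which was true of 54.8% of all genes tested, and the median log2FC was 0.23. Srxn1 passed, and 6 genes including it had an unadjusted p under 0.05, each higher, beside 7.93% of all genes tested. With pairs summed 7 did, beside 4.04% of all genes tested. Prdx6, which reduces phospholipid peroxides, had a log2FC of 0.33, Gsta4, which detoxifies a product of lipid peroxidation, 0.37, catalase (Cat) 0.23, Gclm, a subunit of the glutathione-building ligase, 0.23, and Mt1, a metal-binding metallothionein, 0.74. Mt1 stood at 165, 288 and 523 CPM after gamma and at 107, 176 and 222 CPM after mixed field, with its highest value in F39. The widely used Nrf2 targets Nqo1 (0.23), Hmox1 (0.38) and Gclc (0.01) did not reach an unadjusted p under 0.05. The median of the list was 0.16 without F39, 0.04 in F1 to F20 and 0.23 in F21 to F40. Of these genes, 21 had a RefSeq promoter, and 27.6% of their 29 windows held a match to the antioxidant response element core, beside 27.8% of all promoters.

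No target of p53 passed. Of 29 measured, 14 lay above 0, beside 54.8% of all genes tested, and the median log2FC was −0.02. At an unadjusted p under 0.05, 2 were higher and 2 lower, where 7.93% of all genes tested were higher and 8.64% lower. Cdkn1a, which encodes the cell cycle inhibitor p21, had a log2FC of 1.05 (edgeR adjusted p = 0.222), and of 0.03 without F17 and F18. Fas, a death receptor, had 0.35, Ddb2, of the repair of ultraviolet lesions, −0.33, and Eda2r, a receptor of the tumour necrosis factor family, −0.37. The p53 antagonist Mdm2 (−0.11), Ccng1 (0.01), Bax (0.02) and Phlda3 (−0.02) lay near 0, and for Ccng1, Bax and Phlda3 the sign depended on the libraries and covariates used. Gdf15, a stress cytokine, was under the count minimum, at 1.32, 2.50 and 4.17 CPM after gamma and 0.663, 2.92 and 4.92 CPM after mixed field. Of 25 genes of DNA double-strand break repair, 1 was higher and 3 lower at an unadjusted p under 0.05, beside the same shares of all genes. None of the 25 passed. Ercc1 had a log2FC of 0.25 (0.15 without F39, where it was highest), and the end-joining genes Prkdc and Lig4 had −0.19 and −0.35.

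No interferon or antigen presentation gene passed. Of 32 interferon-stimulated genes 4 were lower and 0 higher at an unadjusted p under 0.05 (median log2FC −0.07), and of 21 antigen presentation genes 5 were lower and 0 higher (median −0.12), where 8.64% of all genes tested were lower and 7.93% higher at this p. The direction of these lists was not tested. Gbp7, an interferon-induced GTPase, stood at 5.67, 7.21 and 14.3 CPM after gamma and at 10.5, 12.03 and 24.2 CPM after mixed field (log2FC −0.78, edgeR adjusted p = 0.118). Nlrc5, the activator of class I antigen presentation genes, had −0.92, Ciita, its class II counterpart, −0.58, and the class I gene H2-Q4 −0.63. For Nlrc5 the highest mixed field values came from F22, F24 and F25 (17.96, 19.8 and 16.04 CPM), where the other 7 libraries held at most 8.83 CPM, and these 3 libraries were also the highest of the group in H2-Q4 (85.1, 81.2 and 75.9 CPM) and Gbp7. Within F1 to F20, 1 of the 32 and 0 of the 21 lay above 0, with medians of −0.43 and −0.42, and within F21 to F40 16 and 10 did. With pairs summed the medians of the lists lay at 0.04 and −0.02, and without F17 and F18 at 0.07 and 0.01.

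Genes of energy metabolism and translation lay higher after gamma in the list medians. Of 77 genes of oxidative phosphorylation, 75 were above 0 and 8 had an unadjusted p under 0.05, all higher (median log2FC 0.26). Of 80 cytosolic ribosomal protein genes, 80 were above 0 and 13 had an unadjusted p under 0.05, all higher (median 0.47). Over all genes tested, 54.8% were above 0 and 7.93% were higher at this p, so the count of the oxidative phosphorylation genes at this p was near that of all genes. None passed. With RIN as covariate the medians were 0.19 and 0.27. Both medians changed sign between the ranges, from −0.10 and −0.10 in F1 to F20 to 0.41 and 0.72 in F21 to F40, and both were lower without F39, at 0.11 and 0.13. Rpl37, a protein of the large ribosomal subunit, shows this in its levels: 112, 244 and 958 CPM after gamma against 120, 172 and 308 CPM after mixed field, with 958 in F39 and at most 395 in the other gamma libraries. With pairs summed, none of the 80 had an unadjusted p under 0.05, where 4.04% of all genes tested were higher at this p. The median of the fatty acid genes, targets of the PPAR receptors, kept its sign in both ranges. Of 34 genes, 29 were above 0, 11 had an unadjusted p under 0.05, all higher, and the median was 0.21 (0.18 in F1 to F20, 0.23 in F21 to F40, 0.14 without F17 and F18). With pairs summed 1 of them reached an unadjusted p under 0.05. Plin5, which coats lipid droplets at mitochondria, had 138, 177 and 229 CPM against 133, 141 and 155 (log2FC 0.34), and Etfdh, which passes electrons from fatty acid oxidation to the respiratory chain, had a log2FC of 0.30.

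**Figure D3:**
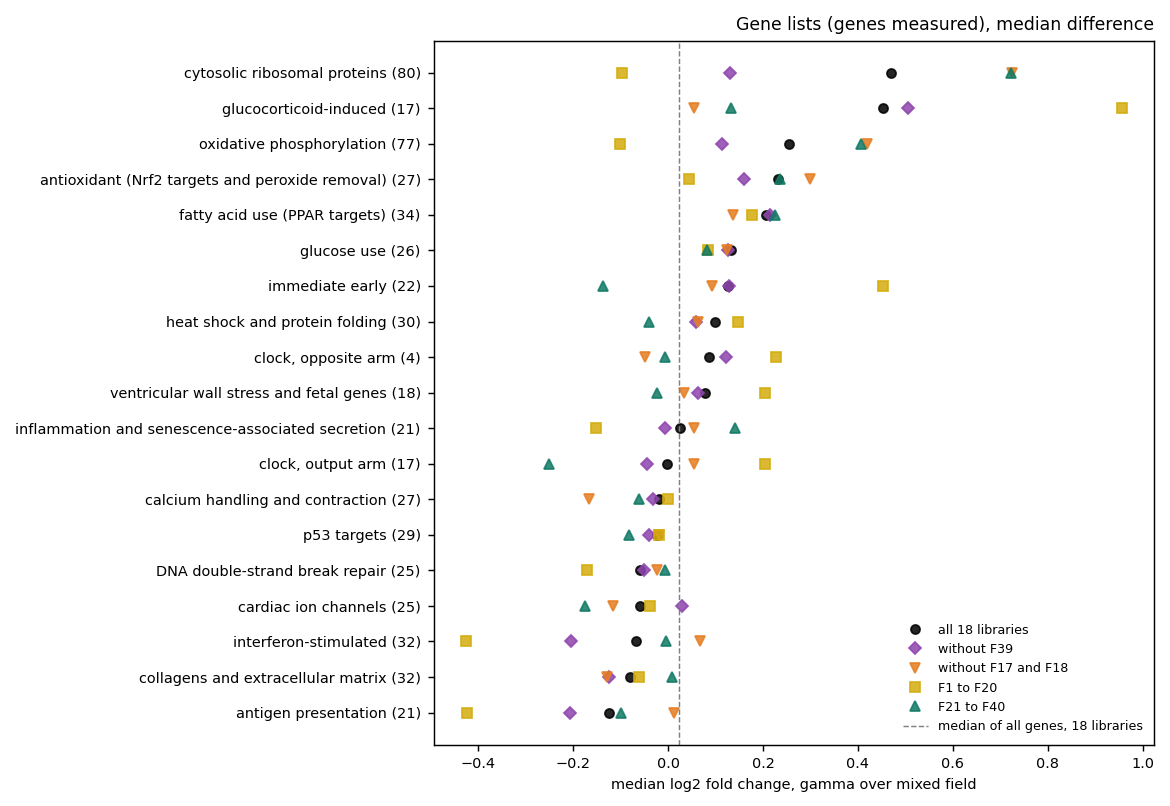
Median log2 fold change of gamma over mixed field for each of 19 gene lists (genes measured in brackets), with all 18 libraries, without F39, without F17 and F18, and within F1 to F20 and F21 to F40; the dashed line is the median of all genes tested. The ribosomal and oxidative phosphorylation medians, among others, cross 0 between the ranges, while the glucocorticoid-induced median is highest in F1 to F20 (0.96).

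The other gene lists had medians between −0.08 and 0.13. Their counts at an unadjusted p under 0.05 stand beside 7.93% higher and 8.64% lower of all genes tested. Of 26 glucose genes 3 were higher and 1 lower at an unadjusted p under 0.05 (median log2FC 0.13). The lower one was Pfkfb2, which sets the fructose bisphosphate signal of heart glycolysis, at 19.04, 32.3 and 36.8 CPM against 28.2, 43.2 and 76.3 (log2FC −0.67). Among 27 genes of calcium handling and contraction, 1 was higher and 2 were lower (median −0.02): Pln, the brake on the calcium pump of the sarcoplasmic reticulum, had a log2FC of −0.34 and Camk2d, a calcium-dependent kinase, −0.20. Among 25 cardiac ion channel genes 1 was higher and 3 were lower (median −0.06). These 3 were Abcc9, a subunit of the ATP-sensitive potassium channel that is also expressed in pericytes (−0.49), Gja1, the main ventricular gap junction protein (−0.43), and Kcnd3, which carries the transient outward current (−0.31). Abcc9 stood at 103, 142 and 234 CPM after gamma and at 204, 222 and 266 CPM after mixed field. Collagen and matrix genes had 1 of 32 higher (Ccn2, 0.58; median −0.08), wall stress and fetal genes 0 of 18 (median 0.08), inflammation and senescence secretion genes 1 of 21 (median 0.03). Of these medians, that of the ion channels was 0.03 and that of the secretion genes −0.01 without F39, and that of the matrix genes 0.05 without F36 and F37. Of 30 heat shock and folding genes 5 were higher (median 0.10), among them Bag3, the co-chaperone that maintains the sarcomere (0.40). Of 22 immediate early genes 2 were higher (median 0.13). No clock gene passed, with 0 of 17 genes of the output arm at an unadjusted p under 0.05. Several of these medians changed sign from F1 to F20 to F21 to F40. Among them were immediate early genes (0.45 to −0.14), the clock output arm (0.20 to −0.25) and secretion genes (−0.15 to 0.14). Wall stress genes (0.20 to −0.02) and heat shock genes (0.15 to −0.04) did so too. The glucose (0.08 and 0.08) and ion channel medians (−0.04 and −0.18) kept their sign.

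Principal component analysis of the 500 most variable genes was used to see whether the fields separated without choosing genes by field. Component 4, with 6.84% of the variance, differed between them in its mean. Its mean score was 3.34 ± 3.22 after gamma (SD, n = 8) and −2.67 ± 1.88 after mixed field (SD, n = 10, exact permutation test, two-sided, p = 0.000274, adjusted over 5 components 0.00137). The scores overlapped, at −1.53 to 6.10 after gamma and −4.63 to 0.526 after mixed field. With pairs summed the p was 0.0117, adjusted 0.0585 (exact permutation test). The other components of the first 5 had adjusted p of 0.625 or more. The genes of largest weight at the gamma end were Myl4 (an atrial myosin light chain), Pdk4, Acta2, Acta1, Pm20d2 and Ucp3, and those at the mixed field end were Gm42047, Gbp4, Gm10435, H2-Q5, Ccl8, Gbp3 and Nlrc5. Of the latter, Gbp3 is on the interferon-stimulated list and Nlrc5 on the antigen presentation list.

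**Figure D4:**
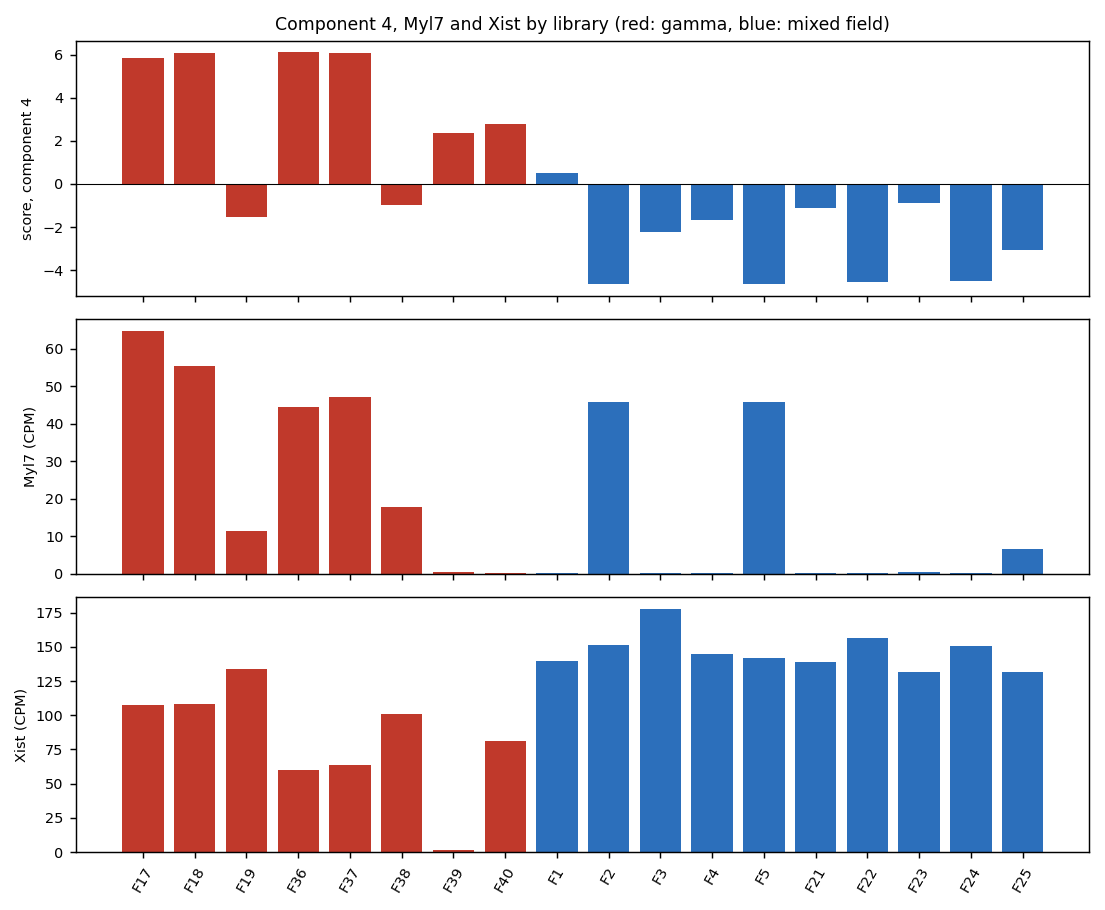
Score on component 4 (no unit), Myl7 level and Xist level (both in CPM) as a bar for each gamma (red) and mixed field (blue) library. Of the gamma scores only those of F19 and F38 are below 0, Myl7 exceeds 5 CPM in 6 gamma and 3 mixed field libraries, and Xist is at 1.19 CPM in F39.

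Atrial transcripts varied among the libraries. Myl7, the atrial myosin light chain, exceeded 5 CPM in 6 of 8 gamma libraries and in 3 of 10 mixed field libraries (F2, F5 and F25). The summed level of 18 atrial markers was 541, 783 and 987 CPM after gamma, 486, 596 and 1047 CPM after mixed field and 520, 617 and 1997 CPM in the sham females, and none of the 18 was at 0 throughout. With the atrial level as a covariate 16 genes (0.139%) passed, of which 11 were among the 17, and without the 9 libraries over 5 CPM no gene passed (0 DEGs, edgeR; 1740 genes at an unadjusted p under 0.05). The latter fit kept only 2 gamma libraries, F39 and F40, against 7 mixed field libraries. Each of the 17 kept its direction in both, from which nothing is read, because they were chosen in these same libraries. The sum of 12 proliferation markers was 18.8, 27.1 and 52.7 CPM after gamma and 21.2, 61.8 and 93.3 CPM after mixed field. Mki67 (log2FC −0.84, edgeR adjusted p = 0.141) and Top2a (−0.86, 0.172) passed only the looser expression filter and missed the threshold. With pairs summed and without F39 they had −0.97 and −0.90 (edgeR adjusted p = 0.598 and 0.627). In bulk tissue, fewer cells of a type and less RNA per cell cannot be told apart. The part of these cell types in the field difference was not tested.

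The sham libraries put the field difference in relation to the number ranges. Against all 9 sham libraries, the sham median was nearer to gamma in 13 of the 17 genes and nearer to mixed field in 4. Split by range, however, the sham F21 to F40 median (5 libraries) was nearer to gamma in 17 of 17 and the sham F1 to F20 median (4 libraries) was nearer to mixed field in 17 of 17. That combination was met by 46.4% of all genes tested and by 73.9% of the 1906 genes at an unadjusted p under 0.05. Srxn1 stood at 23.5, 21.1, 27.2 and 24.98 CPM in sham F1 to F20 and at 36.3, 36.9, 34.9, 30.04 and 30.6 CPM in sham F21 to F40, without overlap. Kcnk1 stood at 1.92, 2.27, 3.21 and 2.10 CPM in the first and at 5.72, 6.27, 8.45, 8.53 and 8.11 CPM in the second. Mtx3 stood at 18.01, 18.6, 11.9 and 16.7 CPM and at 8.11, 7.11, 7.95, 8.01 and 9.73 CPM. Between the sham ranges 9 of the 17 genes were lower in F21 to F40 without overlap, 3 were higher without overlap and 5 overlapped.

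Across all 11507 genes, the log2 difference between the sham ranges (F21 to F40 minus F1 to F20) and the log2FC of gamma over mixed field, which share no library, had a Pearson r of 0.684, and 75.3% had the same sign. Of the 1906 genes at an unadjusted p under 0.05, 94.2% had the same sign, as had all 17. Genes are not independent replicates, and the r is a description. It was 0.753 with pairs summed, 0.405 without F39, 0.776 for the field difference within F21 to F40 and −0.133 within F1 to F20. In the sham libraries RIN differed between the ranges (5.9 to 7.6 in F1 to F20 and 4.1 to 6 in F21 to F40), whereas its means were nearly equal in the gamma and mixed field groups. With RIN as a covariate 180 genes (1.56%) passed, 38 of them higher, and all 17 were among them. With RIN as covariate and pairs summed none did (edgeR, 0 DEGs). The part of RNA quality or of age in the field difference was not tested.

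The field difference also varied with gene length. By length of the longest GENCODE transcript, the genes were cut into 5 equal classes. The median log2FC was 0.13 in the class of shortest transcripts and −0.07 in that of the longest. These classes lay at −0.07 and 0.01 within F1 to F20 and at 0.20 and −0.14 within F21 to F40, and at 0.05 and −0.05 without F39. Of the 14 genes that fell, 5 belonged to the longest class, and of the 3 that rose 1 did (Srxn1).

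Xist itself lay below the count minimum because of F39. Under a looser filter that kept it, its log2FC was −0.83 (edgeR adjusted p = 0.298) with F39 and −0.64 without it (edgeR adjusted p = 0.0677). With pairs summed and without F39 it was −0.60 (edgeR adjusted p = 0.598). Without F39, the 7 gamma libraries (60.1 to 134 CPM) overlapped the mixed field libraries (131 to 177 CPM) only through F19. In the sham females Xist stood at 134 to 179 CPM in F1 to F20 and at 48.8 to 83.5 CPM in F21 to F40. Leaving out F39 gave 21 DEGs (0.182%), with all 17 among them.

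**Figure D5:**
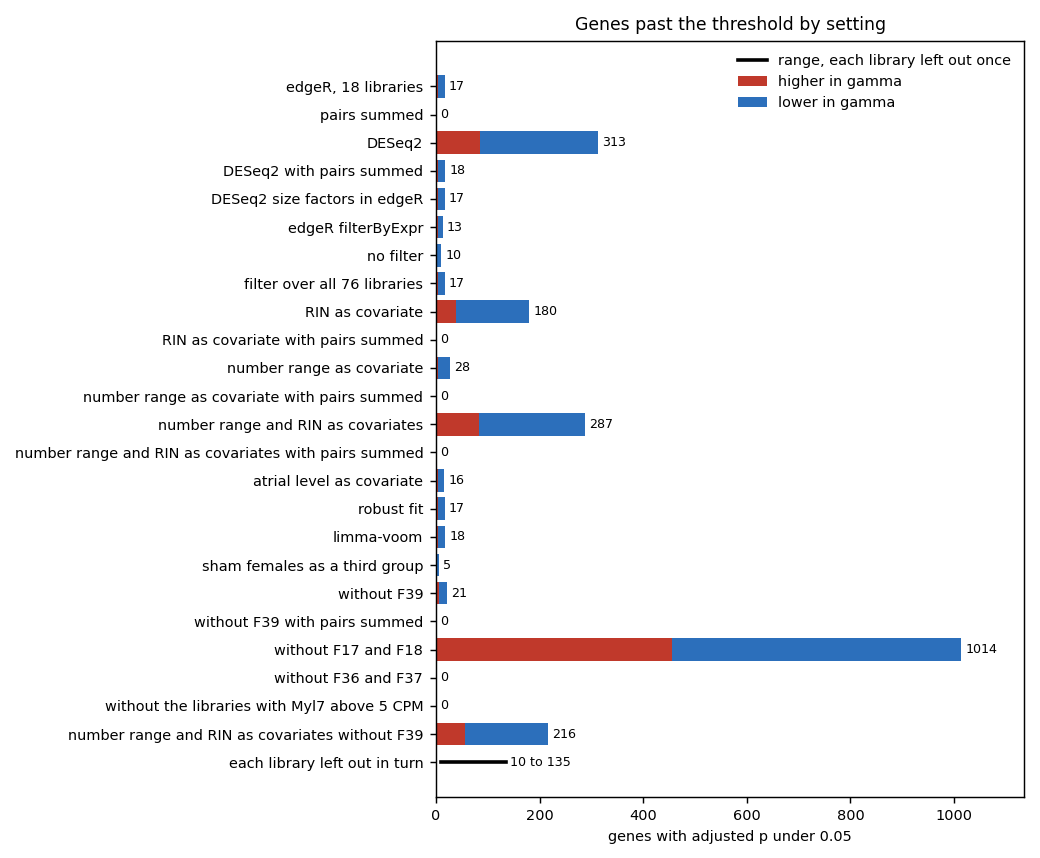
Number of genes past an adjusted p of 0.05 for gamma against mixed field (bars, red for higher and blue for lower after gamma) under each choice of libraries, covariates and tools, and the range over fits that left out each library in turn (line). The count is 17 with 18 libraries, 0 with pairs summed and 1014 without F17 and F18, and the line runs from 10 to 135.

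The number of DEGs depended strongly on which libraries were kept. Leaving out F19 gave 135 DEGs, leaving out F36 gave 10 and leaving out F22 gave 10. Leaving out both F36 and F37 gave 0 (edgeR; 1068 genes, 9.28%, at an unadjusted p under 0.05). In each setting that tested them, all 17 kept their sign. They were chosen for a large difference in these same libraries, which favours this, so nothing is read from it. Over the fits that left out 1 library, the log2FC of Srxn1 ranged from 0.44 to 0.52, that of Egln2 from 0.33 to 0.37, that of Mtx3 from −0.70 to −0.61 and that of Gm10435 from −1.29 to −1.04. Over these fits the adjusted p of Srxn1, Egln2, Mtx3, Ftx, Hmcn1, Slf2, Pkd2l2, C920021L13Rik, Mtss1 and Mir22hg stayed under 0.05 (edgeR, highest value 0.0388 for Mtss1), and for the other 7 it exceeded 0.05 in at least 1 fit.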

How the data were processed

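Poly-A RNA libraries of mouse right ventricle were sequenced by the authors as paired reads, checked with FastQC 0.11.9, aligned to mm39 (GRCm39) with STAR 2.7.8a and counted with HTSeq-count over a custom annotation that covers each gene's last 500 bp. The deposited values are raw counts per gene, without normalization. Counts made this way depend on where a 3′ end is annotated.

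Filtering kept the 11507 of 56941 genes whose count exceeded 20 in every one of the 18 libraries. The test used edgeR 4.0.16 in R 4.3.3 (TMM factors, quasi-likelihood test, field as the only term), adjusted by the Benjamini-Hochberg method over all of them. DESeq2 1.42.0 and limma 3.58.1 were alternatives. Levels are TMM-scaled CPM over the 18 libraries and 9 sham female libraries. Scripts were tested on simulated data. Single values were compared by exact permutation over libraries (43758 splits). Of the gene IDs, 56323 matched GENCODE vM39.

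Named genes were the 10 of largest change in each direction among those past the threshold, filled by smallest p, the 10 of smallest p, up to 4 called or else 3 leading members of each list, fixed p53 targets, and the 5 leading genes of each range and of the interaction. Predicted genes were named only after their values were seen. The members and the gene lists were chosen with earlier results of these data known. A few genes that this rule names are not reported here. F16 was left out because its labels combine gamma with 0 cGy.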

Additional observations from a re-analysis of the deposited data

Results flagged for a closer look

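In 190 groups of values (each named gene in the 8 gamma or the 10 mixed field libraries), 14 held a highest or lowest library whose gap to the nearest other exceeded Dixon's 95% critical value. Chance gives this in about 1 in 20 groups of independent values. These groups share libraries and hold near-identical pairs, so that rate is only a rough guide. Of the 14, 8 were in F39, the gamma library with low Xist. There Rpl10a stood at 832 CPM, Rpl37 at 958 CPM, Bax at 34.2 CPM, Ercc1 at 38.3 CPM, Ninj1 at 185 CPM, Socs3 at 28.4 CPM and Trib3 at 7.82 CPM, each the highest of the gamma group, and Jarid2 at 10.8 CPM, the lowest. The Hbb-bs haemoglobin gene was also highest in F39 (636 CPM, with 27.3 to 151 CPM in the other gamma libraries), and its RIN of 5.7 was the lowest of the 18. F38 was far above the other gamma libraries in Ciita (3.46 CPM) and H2-Q4 (60.4 CPM). In the mixed field group F4 was high in Ciita (5.99 CPM), F3 was high in Hmcn1 (29.8 CPM), and F1 was low in Pgam1 (21.41 CPM) and high in Tpi1 (892 CPM). What moved these libraries was not tested.

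The field effect differed between F21 to F40 and F1 to F20 by the interaction test for 9 genes, as effect in the former minus effect in the latter on the log2 scale. The difference was −1.16 for Tsc22d3, −2.50 for Arrdc2, −1.50 for 4930481A15Rik, −1.27 for Acrbp, −1.40 for Atn1, −1.03 for Lrrc8a, a subunit of the volume-regulated anion channel, and −0.85 for Klf6, a zinc finger transcription factor. It was 0.83 for Cdk2ap1 and 0.97 for Zdhhc13. Of these, Klf6, Cdk2ap1 and Zdhhc13 were named after their values were seen. None passed with pairs summed or without F17 and F18.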

How the results depend on the processing

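No paired analysis was possible because nothing in the labels links a gamma library to a mixed field library. The settings without F39, F17 and F18, F36 and F37 or the Myl7-rich libraries were chosen after seeing the data. The number of genes past the threshold (17) became 0 in edgeR with pairs summed, alone or with RIN, number range, both, or without F39, whereas DESeq2 with pairs summed called 18, all 17 among them. It was also 0 without F36 and F37 and without the Myl7-rich libraries, the latter with 2 gamma libraries left (F39 and F40). It was 313 by DESeq2, 10 with no filter, 180 with RIN, 28 with number range, 287 with both, 216 with both and without F39, 5 with the sham libraries as an added group, and 1014 without F17 and F18. Leaving out 1 library gave 10 to 135.

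Within F1 to F20 (0 genes), DESeq2 gave 91, RIN as covariate 50, the contrast of a 4-group fit 8, and leaving out 1 library 0 to 421. Within F21 to F40 (293 genes), summing pairs gave 0, also without F39, DESeq2 1308, the 4-group fit 724, and leaving out 1 library 0 to 1312. The interaction (9 genes) gave 0 with pairs summed, 298 by DESeq2, 100 with RIN, 0 without F17 and F18, 16 without F39, and 1 to 582 leaving out 1 library. The components whose mean differed between the fields (1) became 0 with pairs summed. The RIN difference was 0.273 within F1 to F20 and −0.311 to 0.103 leaving out 1 library, and the difference in totals within F1 to F20 was 816177. The causes of these changes were not tested.

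Genes near 0 changed sign. The log2FC of Phlda3 was 0.10 with pairs summed by edgeR and by DESeq2, 0.11 with pairs summed and number range, 0.019 with RIN, 0.039 with both, 0.15 without F17 and F18, 0.0033 without F36 and F37, 0.28 without the Myl7-rich libraries, and −0.15 to 0.051 leaving out 1 library. That of Bax was −0.064 with RIN, −0.022 with number range, −0.069 with both, −0.055 by limma-voom, −0.18 without F39, −0.092 with pairs summed too, −0.19 with both covariates, and −0.18 to 0.093 leaving out 1 library. That of Ccng1 was −0.024 with the atrial level, −0.0072 without F39, −0.021 with pairs summed too, −0.011 with both covariates, −0.0015 without F17 and F18, −0.026 without F36 and F37, and −0.014 to 0.047 leaving out 1 library. Without F17 and F18, Nfil3 was at −0.021. Without the Myl7-rich libraries, Plin5 was at −0.0093 and Pdk4 at −0.13. Arrdc2 was at −0.24 without F17 and F18, and Gclc at −0.024 with pairs summed. Several list medians also changed sign with the libraries kept, and the direction of every other gene named was not compared in all settings.

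The depth of 13451600 to 22009400 counted reads per library sets the counting error of a gene, to which the spread between libraries adds: the log2FC had an SE of 0.13 for Ftx, 0.06 for the more abundant Egln2 and 0.33 for Rpl37, more abundant still. The part of depth in these errors was not tested.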
